A study of Mus musculus with 12 samples.

Results

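The primary granule genes described here were Mpo, Elane, Prtn3, Ctsg, Prss57, Nkg7, Ms4a3, Fcnb and Srgn, which encode the peroxidase, serine proteases, membrane proteins, lectin and proteoglycan of immature neutrophil granules or of the cells that make them. They were named as a list, and each was represented by the highest-mean probe set among those annotated to a lone symbol. Every listed gene had exactly 1 such probe set. The list held 9 of the 22180 genes with a chosen probe set, and all 9 were among the 19152 genes tested.

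The study measured 12 samples of sorted cells from 6 mouse leukaemias on a whole-transcript Affymetrix array. All arose under the oncogene MLL-AF9, a gene fusion found in acute myeloid leukaemia, and the series addresses overexpression of Dnmt3b, a de novo DNA methyltransferase, in them. Leukaemias 81, 83 and 85 were labelled Dnmt3b knock-in and leukaemias 73, 75 and 79 were labelled wild type. Flow sorting split each of them into 1 c-kit-positive sample and 1 c-kit-negative sample, which made 4 groups of 3 arrays: knock-in c-kit-positive, knock-in c-kit-negative, wild-type c-kit-positive and wild-type c-kit-negative. The c-kit protein is the receptor for stem cell factor and is carried by immature blood cells. The tissue is not settled, since the titles speak of bone marrow and the source field of spleen. The labels give neither the age of the mice nor the promoter that drives Dnmt3b, and they leave unsaid whether the 6 numbers stand for separate mice, so p-values measure only the spread between these samples.

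Primary, or azurophil, granules are the first granules that a developing neutrophil forms, at the promyelocyte stage. Their peroxidase and serine proteases are made in large amounts at that stage, packed with the proteoglycan serglycin, and carried on into the mature cell after their genes have been shut down. Late neutrophils are instead marked by transcripts of secondary and tertiary granule proteins such as lactoferrin and the matrix metalloproteinases. MLL-AF9 can transform granulocyte-monocyte progenitors, the cells that stand just before the promyelocyte.

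Array medians lay between log2 5.56 and 5.71, and arrays of the same group correlated at Pearson r of 0.933 to 0.986. Kit, which encodes c-kit, was higher in the c-kit-positive sample of all 6 leukaemias by log2 1.01 to 1.77. Dnmt3b itself did not pass the test between genotype labels, with a log2 difference of 0.03 over both fractions (95% confidence interval -0.19 to 0.25, adjusted p = 0.964 with limma), so knock-in is used below as the name of a group. The labels do not say whether the knock-in transcript carries the sequence that this probe set measures, so the value gives no measure of the overexpression.

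RefSeq start sites on the GRCm38.p6 build were at hand for 8 of the 9 genes, all but Prss57. The 250 bases before the start are shown for the 5 genes whose window held AGGAAGT, a core sequence of the kind bound by Ets factors. Primary granule genes are known targets of the Ets factor PU.1. The part of Ets factors in the c-kit differences below was not tested. Capitals mark AGGAAGT and, on the printed strand, TATAA, the core of a TATA box. Each sequence runs 5′ to 3′ on the strand of its gene and ends just before the start site.

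Mpo (chr11:87793534-87793783, plus strand): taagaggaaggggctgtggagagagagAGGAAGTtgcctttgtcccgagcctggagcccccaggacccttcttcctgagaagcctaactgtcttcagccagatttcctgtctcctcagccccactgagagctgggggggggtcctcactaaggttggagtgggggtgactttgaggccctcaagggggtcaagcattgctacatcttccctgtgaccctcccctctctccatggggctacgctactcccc
Elane (chr10:79886062-79886311, plus strand): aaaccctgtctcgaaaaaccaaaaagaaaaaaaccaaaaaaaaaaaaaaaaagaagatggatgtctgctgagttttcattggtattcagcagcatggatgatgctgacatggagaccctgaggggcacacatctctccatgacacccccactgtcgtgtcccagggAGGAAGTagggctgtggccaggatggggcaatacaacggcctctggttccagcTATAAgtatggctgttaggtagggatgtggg
Prtn3 (chr10:79879417-79879666, plus strand): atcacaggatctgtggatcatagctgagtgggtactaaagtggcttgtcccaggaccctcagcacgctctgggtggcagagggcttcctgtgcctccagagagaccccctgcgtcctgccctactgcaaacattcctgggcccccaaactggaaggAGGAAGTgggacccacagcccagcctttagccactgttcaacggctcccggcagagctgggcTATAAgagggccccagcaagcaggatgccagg
Ctsg (chr14:56102575-56102824, minus strand): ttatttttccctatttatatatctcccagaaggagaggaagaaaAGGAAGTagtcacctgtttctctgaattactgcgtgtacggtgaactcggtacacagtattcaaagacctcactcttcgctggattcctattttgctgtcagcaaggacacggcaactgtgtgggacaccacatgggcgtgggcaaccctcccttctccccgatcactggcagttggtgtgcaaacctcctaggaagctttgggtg
Fcnb (chr2:28084879-28085128, minus strand): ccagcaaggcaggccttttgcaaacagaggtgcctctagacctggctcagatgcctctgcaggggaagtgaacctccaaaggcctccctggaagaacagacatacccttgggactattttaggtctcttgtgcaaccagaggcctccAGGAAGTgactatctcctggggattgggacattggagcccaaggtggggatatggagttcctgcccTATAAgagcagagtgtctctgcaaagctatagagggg

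AGGAAGT, searched on both strands (reverse complement ACTTCCT), was found in the windows of 5 of the 8 genes, in each case on the gene's own strand. It stood 223 bases before the start in Mpo, 84 in Elane, 94 in Prtn3, 206 in Ctsg and 103 in Fcnb. The same letters were in 7.69% of 32851 mouse windows of this length. The neighbouring protease genes Elane and Prtn3 shared a further arrangement: AACGG, a core sequence of Myb factors, lay 50 and 55 bases before their starts, and TATAA lay 31 and 32 bases before. AACGG on either strand was in 14.5% of all windows, and TATAA on the gene's strand in 16%. TATAA was also in the windows of Fcnb, at 37 bases, and of Srgn, at 98 bases.

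Among the other core sequences searched on both strands, TGTGGT (Runx factors) was in windows of Ctsg, Nkg7 and Srgn, against 14% of all windows. TTNNGNAA (C/EBP factors) was in those of Ms4a3, Fcnb and Srgn, against 36.8% of all windows. Srgn had 2 annotated start sites, so the 8 genes gave 9 windows. No matches of different sequences overlapped. The 5 core sequences were chosen after the windows had been read, and a match is a description of letters.

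Cells sorted for c-kit carried more RNA of the primary granule genes in both genotypes. Over the 6 leukaemias, 8 of the 9 genes rose in c-kit-positive relative to c-kit-negative cells (limma, adjusted p under 0.05), and 0 fell. Of all genes tested, 5.84% rose and 2.41% fell by the same rule. The median log2 difference of the 9 genes was 1.44, and the median of all genes was -0.03. Mpo rose 7.23-fold, Nkg7 3.71-fold, Ctsg 3.45-fold and Elane 3.05-fold. In bulk samples, a higher share of cells that express a gene and more of its RNA per cell cannot be told apart.

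The sorted fractions came from the same leukaemias, and both arrays of a leukaemia deviated together. With the leukaemia as a replicate block, all 9 genes rose, against 13% of all genes that rose and 6.61% that fell. The call that the block added was Srgn. Counting leukaemias instead, 8 of the 9 genes were higher in the c-kit-positive sample of all 6, as were 13% of all genes. For each of these 8, a two-sided exact sign-flip permutation test over the leukaemias gave p = 0.03125, the smallest that 6 pairs allow.

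Mpo encodes myeloperoxidase, the haem enzyme that makes hypochlorous acid from hydrogen peroxide and chloride. In knock-in leukaemias 81, 83 and 85 its log2 level was 11.57, 9.92 and 10.57 in c-kit-positive cells, against 9.11, 7.34 and 7.95 in c-kit-negative cells. In wild-type leukaemias 73, 75 and 79 it was 11.43, 11.70 and 9.16 in c-kit-positive cells, against 7.59, 8.38 and 6.87 in c-kit-negative cells. The lowest c-kit-positive array, of leukaemia 79, stood just above the highest c-kit-negative array, of leukaemia 81, so the fractions did not overlap. The log2 difference was 2.85 (SE 0.46, adjusted p = 0.00272), with a 95% confidence interval of 3.65-fold to 14.3-fold. It ranked 1 among the positive differences of all genes tested, over both genotypes and in each of them.

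**Figure D1:**
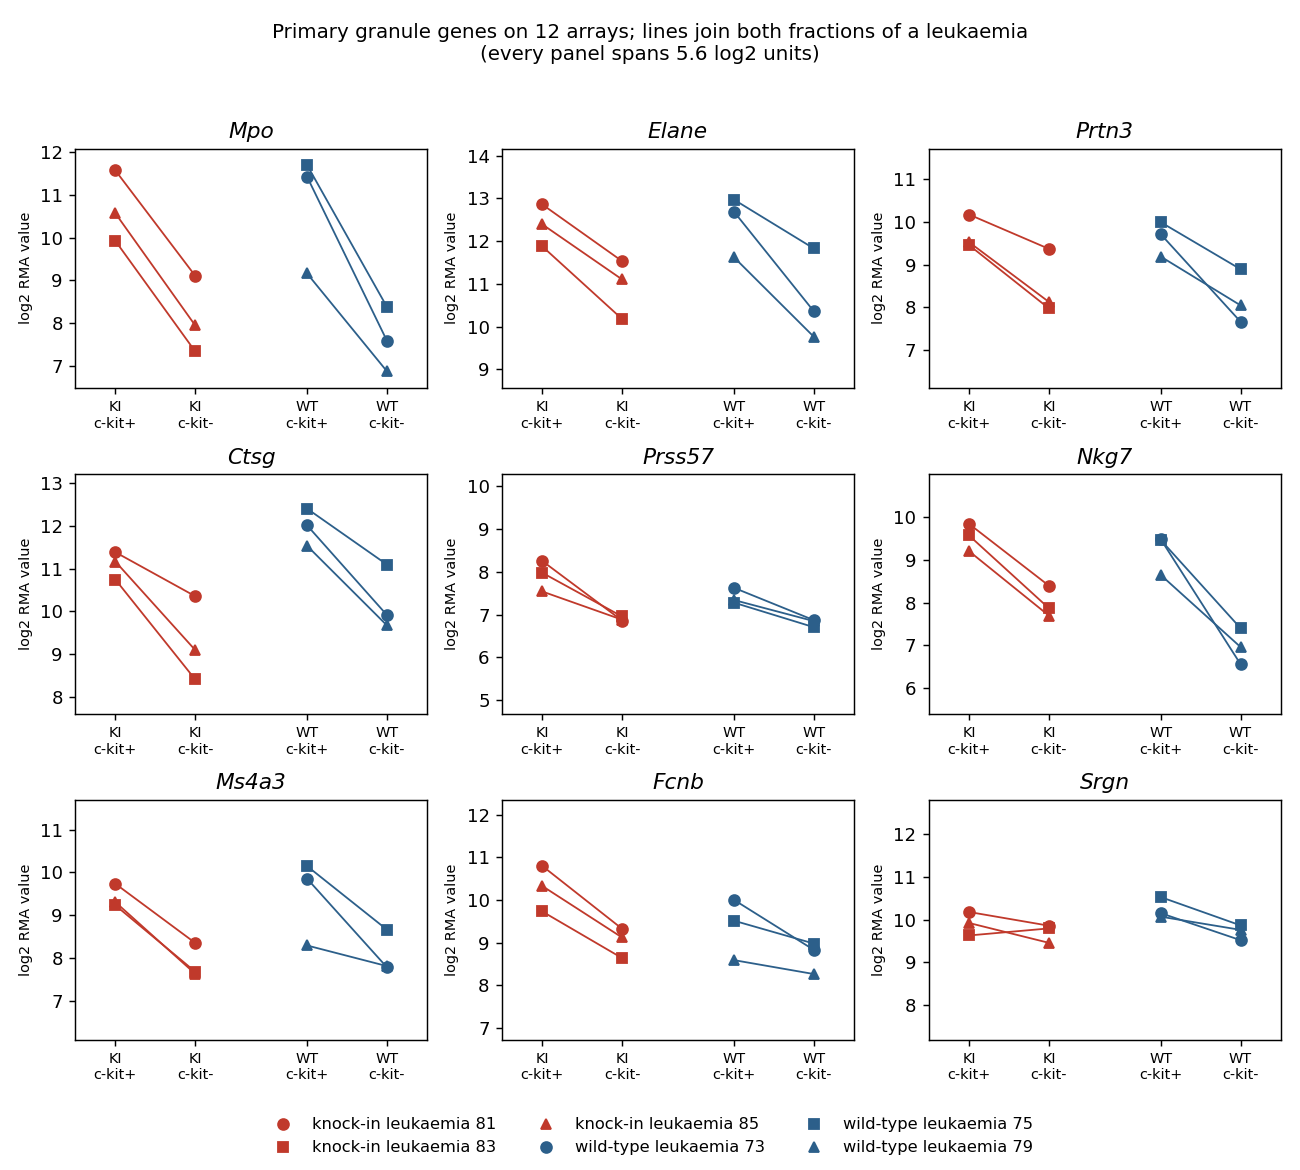
Log2 RMA value (y axis) of each of the 9 genes on the 12 arrays, with c-kit-positive left of c-kit-negative, knock-in leukaemias (red) left of wild-type leukaemias (blue), a symbol per leukaemia and lines joining its fractions. All lines fall to the right except that of Srgn in leukaemia 83, and Mpo has the steepest lines.

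The serine proteases Elane, Prtn3 and Ctsg encode neutrophil elastase, proteinase 3 and the chymotrypsin-like enzyme cathepsin G. Elane stood at log2 12.86, 11.88 and 12.39 in c-kit-positive cells of knock-in leukaemias 81, 83 and 85, against 11.53, 10.18 and 11.10 in c-kit-negative cells. In wild-type leukaemias 73, 75 and 79 its levels were 12.69, 12.97 and 11.63 in c-kit-positive cells, against 10.36, 11.83 and 9.76 in c-kit-negative cells. Every leukaemia was higher in its c-kit-positive sample, although the c-kit-negative sample of leukaemia 75 exceeded the c-kit-positive sample of leukaemia 79. The log2 difference was 1.61 (SE 0.35, adjusted p = 0.0145).

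Prtn3, the neighbour of Elane on chromosome 10, had log2 levels of 10.17, 9.46 and 9.52 in c-kit-positive cells of leukaemias 81, 83 and 85, against 9.37, 7.97 and 8.13 in c-kit-negative cells. The wild-type values in leukaemias 73, 75 and 79 were 9.71, 9.99 and 9.19 in c-kit-positive cells, against 7.66, 8.89 and 8.05 in c-kit-negative cells. The c-kit-negative sample of leukaemia 81 reached above the c-kit-positive sample of leukaemia 79, so the fractions overlapped over all leukaemias. Prtn3 rose by log2 1.33 (SE 0.26, adjusted p = 0.00879), or 2.51-fold.

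Ctsg reached log2 11.38, 10.74 and 11.16 in c-kit-positive cells of the knock-in leukaemias, against 10.35, 8.40 and 9.09 in c-kit-negative cells. In the wild-type leukaemias it reached 12.01, 12.40 and 11.53 in c-kit-positive cells, against 9.91, 11.09 and 9.67 in c-kit-negative cells. The wild-type leukaemias were the higher ones in c-kit-positive cells, and the c-kit-negative sample of leukaemia 75 exceeded the c-kit-positive sample of leukaemia 83. Ctsg rose by log2 1.79 (SE 0.31, adjusted p = 0.00456).

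Prss57, a neutrophil serine protease that cleaves after arginine, had a smaller difference but little spread in c-kit-negative cells. Its log2 level was 8.26, 7.98 and 7.54 in c-kit-positive knock-in cells, against 6.86, 6.96 and 6.88 in c-kit-negative knock-in cells. In wild-type leukaemias it was 7.63, 7.28 and 7.34 in c-kit-positive cells, against 6.87, 6.71 and 6.85 in c-kit-negative cells. The fractions did not overlap, and the 6 c-kit-negative arrays lay within log2 0.25 of each other, while the c-kit-positive arrays spanned log2 0.98. Prss57 rose 1.76-fold (log2 0.82, SE 0.11, adjusted p = 0.000934).

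Nkg7 and Ms4a3 encode membrane proteins. Nkg7 is a granule membrane protein best known from natural killer and cytotoxic T cells. Its log2 level was 9.84, 9.57 and 9.20 in c-kit-positive knock-in cells, against 8.39, 7.87 and 7.69 in c-kit-negative knock-in cells. In wild-type leukaemias it was 9.48, 9.47 and 8.65 in c-kit-positive cells, against 6.56, 7.40 and 6.96 in c-kit-negative cells. The fractions did not overlap, and the log2 difference of 1.89 (SE 0.19, adjusted p = 0.000124) had the smallest adjusted p of the 9 genes.

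Natural killer and T cell markers did not rise with Nkg7 between the c-kit fractions. Of 14 such markers tested, 0 rose and 1, the perforin gene Prf1, fell in c-kit-positive cells by log2 0.30 (adjusted p = 0.0438), and 3 fell with the replicate block. Over the 16 measured markers, the mean log2 level was 5.10 to 5.24 in c-kit-positive and 5.26 to 5.48 in c-kit-negative knock-in cells. It was 4.96 to 5.18 in c-kit-positive and 5.15 to 5.21 in c-kit-negative wild-type cells. Gzma, the granzyme A gene, was below the filter value of log2 4.61 on all 12 arrays. Other markers were above it on all 12: Prf1 at log2 6.99 to 7.74, the natural killer receptor gene Ncr1 at 5.44 to 5.92, and Cd3e.

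Ms4a3, whose protein marks granulocyte-monocyte progenitors in mice, had log2 levels of 9.73, 9.23 and 9.30 in c-kit-positive knock-in cells, against 8.35, 7.67 and 7.62 in c-kit-negative knock-in cells. In wild-type leukaemias 73, 75 and 79 it had 9.85, 10.15 and 8.29 in c-kit-positive cells, against 7.78, 8.66 and 7.81 in c-kit-negative cells. Leukaemia 79 stood apart from the others, with a difference of only log2 0.48 against 1.39 to 2.07 elsewhere, and the fractions overlapped. Ms4a3 rose 2.72-fold (log2 1.44, SE 0.28, adjusted p = 0.00785).

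Fcnb encodes ficolin B, a lectin that binds acetylated sugars and can start the lectin pathway of complement. Its log2 level was 10.80, 9.73 and 10.33 in c-kit-positive knock-in cells, against 9.33, 8.64 and 9.12 in c-kit-negative knock-in cells. In wild-type leukaemias it was 10.003, 9.51 and 8.59 in c-kit-positive cells, against 8.83, 8.98 and 8.27 in c-kit-negative cells. The smallest differences were those of leukaemias 79 and 75, and the fractions overlapped over all leukaemias. Fcnb rose 1.95-fold (log2 0.97, SE 0.24, adjusted p = 0.0267).

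Srgn encodes the core protein of serglycin, whose negatively charged sugar chains hold the basic proteases in the granule. It stood at log2 10.18, 9.63 and 9.92 in c-kit-positive knock-in cells, against 9.86, 9.79 and 9.46 in c-kit-negative knock-in cells. In wild-type leukaemias it stood at 10.15, 10.53 and 10.07 in c-kit-positive cells, against 9.52, 9.87 and 9.76 in c-kit-negative cells. The order was turned round in leukaemia 83, and the fractions overlapped. The log2 difference of 0.37 (SE 0.12) did not pass with 4 group means (adjusted p = 0.0755) and passed with the leukaemia as a replicate block (adjusted p = 0.0124). The exact sign-flip permutation test over 6 leukaemias gave a two-sided p = 0.0625.

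**Figure D2:**
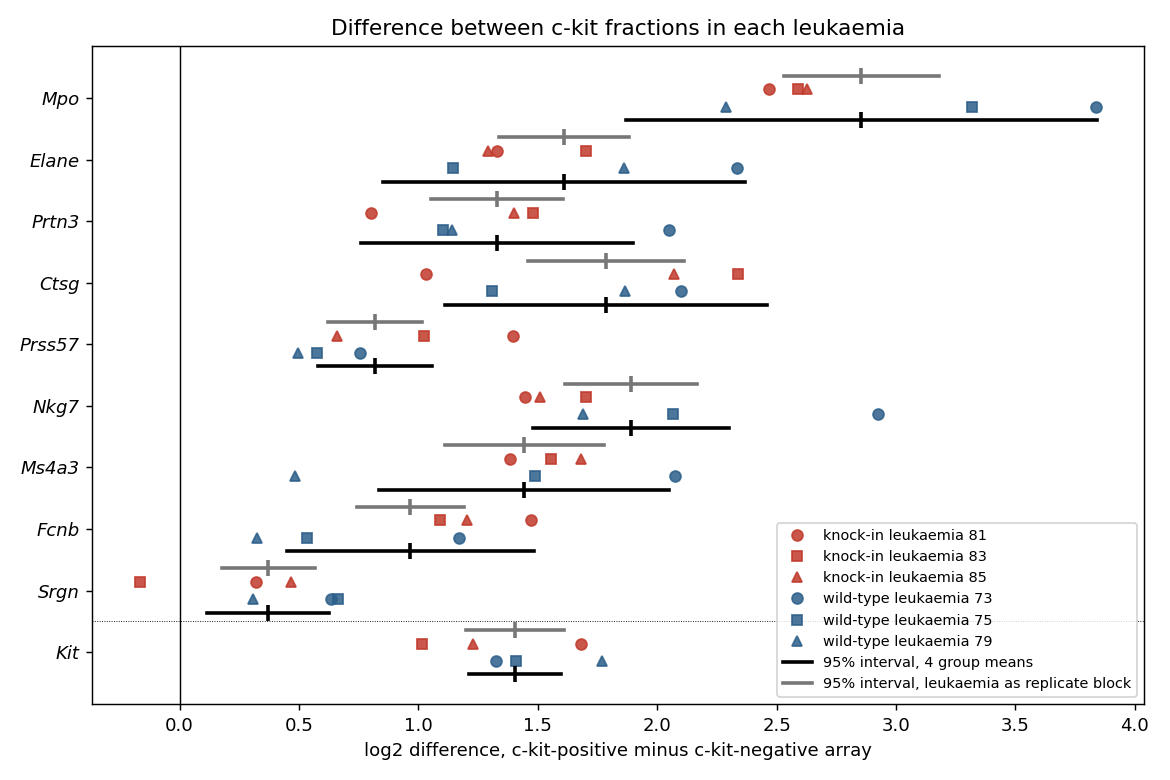
Log2 difference between the c-kit-positive and c-kit-negative array of each leukaemia (x axis) for the 9 genes and Kit (rows); red symbols are knock-in and blue symbols wild-type leukaemias. The lines are 95% confidence intervals of the mean difference, black from 4 group means and grey with the leukaemia as a replicate block. The grey intervals are narrower for every listed gene, and the sole point below 0 is Srgn in leukaemia 83.

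Within each genotype, fewer genes passed. In the knock-in leukaemias 2 of the 9 rose, against 1.13% of all genes (0.752% fell): Prss57 by log2 1.03 (adjusted p = 0.00456) and Nkg7 by log2 1.55 (adjusted p = 0.00984). With the replicate block 8 of 9 rose, all but Srgn, against 5.95% of all genes. In the wild-type leukaemias 2 of the 9 rose, against 0.397% of all genes (0.371% fell). These were Nkg7, by log2 2.23 (adjusted p = 0.00252), and Mpo, by log2 3.15 (adjusted p = 0.0465). With the replicate block all 9 rose, against 7.96% of all genes. Within a genotype, the log2 differences of all 9 genes were above 0, from 0.21 for Srgn to 2.56 for Mpo in knock-in leukaemias and from 0.53 for Srgn to 3.15 for Mpo in wild-type leukaemias.

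Several calls were lost when a leukaemia was left out of the fit with 4 group means, which does not pair the fractions of a leukaemia. Each such fit also had fewer arrays, and the cause of the losses was not tested. Without leukaemia 73, 4 of the 9 genes rose over both genotypes, and Elane, Prtn3, Ms4a3 and Fcnb did not pass (adjusted p = 0.0915, 0.0631, 0.0646 and 0.103). Calls in either direction among all 19152 genes then numbered 543, against 1580 with all leukaemias. Without leukaemia 83, Elane (adjusted p = 0.0525) and Fcnb (0.0551) did not pass, beside 568 calls among all genes. Fcnb also missed the threshold without leukaemia 75 (0.102) or leukaemia 85 (0.0581). Mpo, Ctsg, Prss57 and Nkg7 passed whichever leukaemia was left out. Within the knock-in leukaemias the count was 0 without leukaemia 83 and 5 without wild-type leukaemia 79, whose arrays enter the shared estimate of the spread. Calls among all genes were then 58 and 367, against 360 with all leukaemias. Within the wild-type leukaemias the count of the 9 was 0 without leukaemia 73, 1 without leukaemia 75 or 83, 3 without leukaemia 79 or 85 and 5 without leukaemia 81. Among all genes there was 1 call without leukaemia 73, with 15 and 55 without leukaemias 75 and 83. There were 78 and 569 without leukaemias 79 and 85 and 662 without leukaemia 81, against 147 with all leukaemias.

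Genotype label made no difference that passed the test for any of the 9 genes. In c-kit-positive cells 0 of 9 were called by limma, against 0.141% of all genes, in c-kit-negative cells 0 of 9, against 0.0627%, and over both fractions 0 of 9, against 0.0261%. At an unadjusted p under 0.05 the counts were 2 of 9, 1 of 9 and 3 of 9, beside 1894, 1168 and 1603 of the 19152 genes. With the replicate block they were again 0 of 9 in each after adjustment, and 3, 2 and 4 of 9 at an unadjusted p under 0.05, beside 1897, 1208 and 1795 of all genes. Confidence intervals were wide: for Mpo in c-kit-positive cells the log2 difference of -0.07 had an interval of -1.47 to 1.32.

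The largest genotype differences were those of Ctsg, Nkg7 and Fcnb. In c-kit-positive cells the Ctsg levels given above did not overlap between the labels, with all knock-in arrays below all wild-type arrays. This was so for 1 of the 9 genes, against 17.4% of all genes. The log2 difference was -0.89 (95% confidence interval -1.84 to 0.07, adjusted p = 0.539). The c-kit-negative difference of -0.94 was of like size but overlapped between the labels (adjusted p = 0.819).

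For Nkg7 it was the c-kit-negative cells that stood apart, at log2 7.98 ± 0.36 in knock-in and 6.97 ± 0.42 in wild-type leukaemias (SD, n = 3 each). Of the 9 genes, 1 did not overlap there, against 8.88% of all genes. The difference was log2 1.01 (95% confidence interval 0.43 to 1.59, adjusted p = 0.560 with limma). In the same cells the mean of the 16 natural killer and T cell markers was also higher without overlap, at log2 5.26 to 5.48 in knock-in and 5.15 to 5.21 in wild-type leukaemias. Of the 14 tested, 0 passed there, with a median log2 difference of 0.18. Gzmb was at 4.73 to 5.61 in knock-in and 4.56 to 4.75 in wild-type cells. The T cell receptor complex gene Cd3e was at 5.03 to 5.58 in knock-in and 4.68 to 4.87 in wild-type cells. Not all markers were higher: Prf1 was at 7.49 to 7.72 in knock-in and 7.52 to 7.74 in wild-type cells. Ncr1, at 5.75 to 5.92 in knock-in and 5.61 to 5.78 in wild-type cells, overlapped between the labels, as did Gzmb. Gzma was below the filter value on all these arrays, and the part of such cells in the Nkg7 difference was not tested. Averaged over the fractions of each leukaemia, Nkg7 again was the 1 gene without overlap, against 13% of all genes, with a log2 difference of 0.68 (adjusted p = 0.387). For Ctsg in c-kit-positive cells and Nkg7 in both these comparisons, a two-sided exact permutation test of 3 against 3 gave p = 0.1, the smallest it allows.

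Fcnb had log2 10.29 ± 0.53 in knock-in and 9.37 ± 0.72 in wild-type c-kit-positive cells (SD, n = 3 each), a difference of 0.92 with an adjusted p of 0.375 by limma. The difference of Prss57 in the same cells was log2 0.51 (adjusted p = 0.248). The labels overlapped for both genes. Log2 differences of Mpo, Elane, Prtn3 and Ms4a3 in c-kit-positive cells lay between -0.07 and 0.09.

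**Figure D3:**
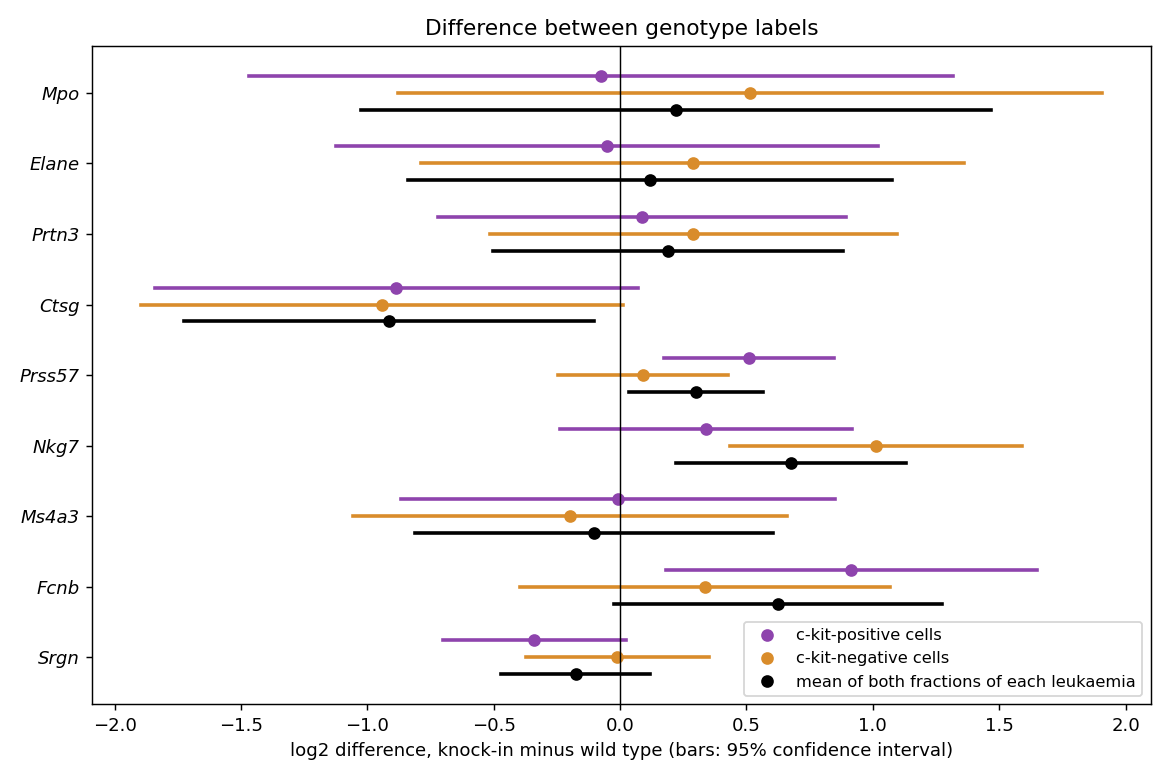
Log2 difference between knock-in and wild-type leukaemias (x axis) of each of the 9 genes, in c-kit-positive cells (purple), in c-kit-negative cells (orange) and over the mean of both fractions of a leukaemia (black); points are estimates and bars 95% confidence intervals. Ctsg lies to the left of 0 and Nkg7 and Fcnb to the right in all 3. So do Srgn and Ms4a3 to the left and Prss57 and Prtn3 to the right, some of them close to 0. None of the 9 genes passed after adjustment over all genes.

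Whether the c-kit difference depended on the genotype label was tested as an interaction. Here 0 of 9 genes passed with limma, as did 0% of all genes. At an unadjusted p under 0.05 the count was 0 of 9, beside 427 of the 19152 genes. With the replicate block 0 genes passed after adjustment, and 3 of 9, beside 1102 of all genes, had an unadjusted p under 0.05. These were Nkg7, Fcnb and Prss57 (adjusted p = 0.791, 0.787 and 0.844). The estimates ran from log2 -0.67 for Nkg7 (95% confidence interval -1.49 to 0.15, or -1.23 to -0.12 with the block) to 0.58 for Fcnb (-0.46 to 1.62, or 0.13 to 1.03 with the block). Prss57 had 0.42 (-0.06 to 0.89, or 0.02 to 0.81 with the block). The interval of Mpo was -2.56 to 1.38, or -1.24 to 0.06 with the block.

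Markers of later neutrophils moved with both comparisons. Of 19 late neutrophil markers tested, 0 rose and 11 fell in c-kit-positive relative to c-kit-negative cells, with a median log2 difference of -0.77. The log2 difference was -3.06 for the collagenase gene Mmp8, -2.72 for the gelatinase gene Mmp9, -1.75 for the surface protein gene Ly6g and -1.20 for the formyl peptide receptor gene Fpr2. Their mean log2 level was 8.62 to 8.93 in c-kit-positive and 9.72 to 9.92 in c-kit-negative knock-in cells, and 7.49 to 8.17 in c-kit-positive and 8.54 to 9.18 in c-kit-negative wild-type cells. It was thus higher in knock-in than in wild-type leukaemias in each fraction, without overlap. Between the labels 5 of the 19 rose in c-kit-positive cells and 5 in c-kit-negative cells. Their part in the results on the 9 genes was not tested.

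Monocyte and macrophage markers fell too, 9 of 14 with a median of log2 -0.75, while 0 rose. The log2 difference was -3.59 for the fibronectin gene Fn1, -1.84 for the cathepsin S gene Ctss, -1.46 for the growth factor receptor gene Csf1r and -0.93 for the transcription factor gene Klf4. Their mean log2 level was 6.43 to 6.70 in c-kit-positive and 7.33 to 8.14 in c-kit-negative knock-in cells, and 6.71 to 6.99 in c-kit-positive and 7.25 to 8.05 in c-kit-negative wild-type cells. The part of this change in the results was not tested either. Of 10 immature progenitor markers, Myb rose, as did Kit, whose protein was used for the sort, and 0 fell, and 4 rose with the replicate block. Flt3, Cd34 and Cd93 had negative log2 differences that did not pass (-0.37, -0.22 and -0.11), and the other markers had positive ones. Among 7 eosinophil markers 0 passed, and 1, Siglecf, rose with the block (adjusted p = 0.00662). Among 6 erythroid and megakaryocyte markers 0 passed in either fit. Ighm fell among 10 B cell markers (2 fell with the block), and Mcpt8 rose among 10 mast cell and basophil markers (1 rose and 1 fell with the block). Of the mast cell markers, Fcer1a and Mcpt4 were below the filter value on all 12 arrays.

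Leukaemias differed from each other in their levels, and the genes did not all follow the same order. In c-kit-positive cells leukaemia 79 was the lowest of the 6 for Mpo, Elane, Prtn3, Nkg7, Ms4a3 and Fcnb. Leukaemia 75 was the highest for Mpo, Elane, Ctsg, Ms4a3 and Srgn, and leukaemia 81 for Prtn3, Prss57, Nkg7 and Fcnb. Yet leukaemia 75 was the lowest for Prss57 in both fractions, and leukaemia 83 was the lowest in c-kit-positive cells for Ctsg and Srgn. In c-kit-negative cells leukaemias 75 and 81 were again the highest for 4 genes each. The fall between fractions was steepest in leukaemia 73 for Mpo, Elane, Prtn3, Nkg7 and Ms4a3. Leukaemia 79 had the smallest difference of Mpo, Prss57, Ms4a3 and Fcnb, and it had the largest difference of Kit.

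Leukaemia 79 also differed in genes outside the list, which were picked after their values had been seen. Prg2, the eosinophil major basic protein gene, stood at log2 8.39 in its c-kit-positive and 9.75 in its c-kit-negative cells, against at most 6.60 on the other 10 arrays. Epx, the eosinophil peroxidase gene, was at log2 5.32 to 5.66 on all 12 arrays. The progenitor antigen gene Cd34 was at log2 9.54 in c-kit-positive cells of leukaemia 79, against 6.65 to 7.46 in the other c-kit-positive samples. In c-kit-negative cells leukaemia 79 did not stand apart for Cd34. Its level there was log2 8.79, against 8.68 in leukaemia 73, 7.95 in leukaemia 75 and 6.66 to 7.09 in knock-in leukaemias. The part of these features in the low levels of leukaemia 79 was not tested.

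Genes that act on the granule proteins were followed in the same comparison. Among 10 genes for maturation and inhibition of the serine proteases, 1 rose and 0 fell, with a median log2 difference of -0.09. The gene that rose was Serpinb1a, which encodes an inhibitor of elastase, cathepsin G and proteinase 3 (log2 0.93, adjusted p = 0.00766). Serpinb6a, another intracellular serpin gene, had -0.24 (adjusted p = 0.0704, or 0.0255 with the replicate block). Ctsc encodes the peptidase that activates the proteases, and its log2 difference of -0.84 ran the other way (adjusted p = 0.0947, or 0.000182 with the replicate block). Cst7, the gene of the Ctsc inhibitor cystatin F, had 0.68 (adjusted p = 0.0929, or 9.4e-05 with the block).

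Newly made myeloperoxidase is folded in the endoplasmic reticulum by calreticulin and calnexin. Among 11 genes of folding and maturation there, P4hb, a protein disulfide isomerase gene, rose by log2 0.72 (adjusted p = 0.0388), and 0 fell. The median was 0.34, and 8 of 11 rose with the replicate block. The calnexin gene Canx had log2 0.48 (adjusted p = 0.0550, or 0.00462 with the block), the disulfide isomerase gene Pdia3 also 0.48 (0.0801, or 0.00135) and the calreticulin gene Calr had 0.63 (0.151, or 0.00214 with the block).

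Other azurophil granule and lysosomal genes split in direction, 3 of 17 up and 3 of 17 down, and 7 up and 3 down with the block. Arsb, an arylsulfatase gene, rose by log2 1.22, Cd63, a tetraspanin gene of the azurophil granule membrane, by 1.12, and the lectin receptor gene Clec12a by 0.74. The lysozyme gene Lyz2 fell by log2 1.75, the phospholipase-like gene Plbd1 by 1.19 and Cd68 by 0.68. Lysozyme, which neutrophils keep in several granule types, thus fell where the peroxidase rose.

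Of 19 genes for granule biogenesis, sorting and exocytosis, 2 rose and 1 fell, with a median of 0.07, and 5 rose and 2 fell with the block. Ap3s1, a subunit gene of the AP-3 complex that carries cargo to lysosome-related organelles, rose by log2 0.90. The membrane fusion gene Vamp8 rose by 0.33, whereas Stx11, a syntaxin gene of granule exocytosis, fell by log2 0.52 (adjusted p = 0.0102). Snap23, a further membrane fusion gene, had -0.35 (adjusted p = 0.0540, or 0.0111 with the block). Among 17 genes for the sugar chains of serglycin, 3 rose and 1 fell (5 and 1 with the block), with a median of 0.03. Csgalnact2, which starts chondroitin sulphate chains, rose by log2 0.69, the chondroitin sulphotransferase gene Chst11 by 0.52 and the linkage region gene B3galt6 by 0.33, whereas the heparan sulphate polymerase gene Ext1 fell by 0.31.

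Transcription regulators of promyelocyte genes also went both ways, with 4 of 20 up and 2 of 20 down, or 8 and 4 with the block. Gfi1, a repressor needed for neutrophil development, rose by log2 1.08 (SE 0.12, adjusted p = 0.00034). Myb, which activates early myeloid genes, rose by log2 1.01 (SE 0.15, adjusted p = 0.00175), Myc by 0.56 and the clock gene Per3 by 0.31. Id2, whose protein blocks helix-loop-helix factors, fell by log2 1.09 and the retinoic acid receptor gene Rara by 0.58. Spi1, the gene of the Ets factor PU.1, had -0.20 (adjusted p = 0.222) and the C/EBP factor gene Cebpa -0.001 (adjusted p = 0.996).

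**Figure D4:**
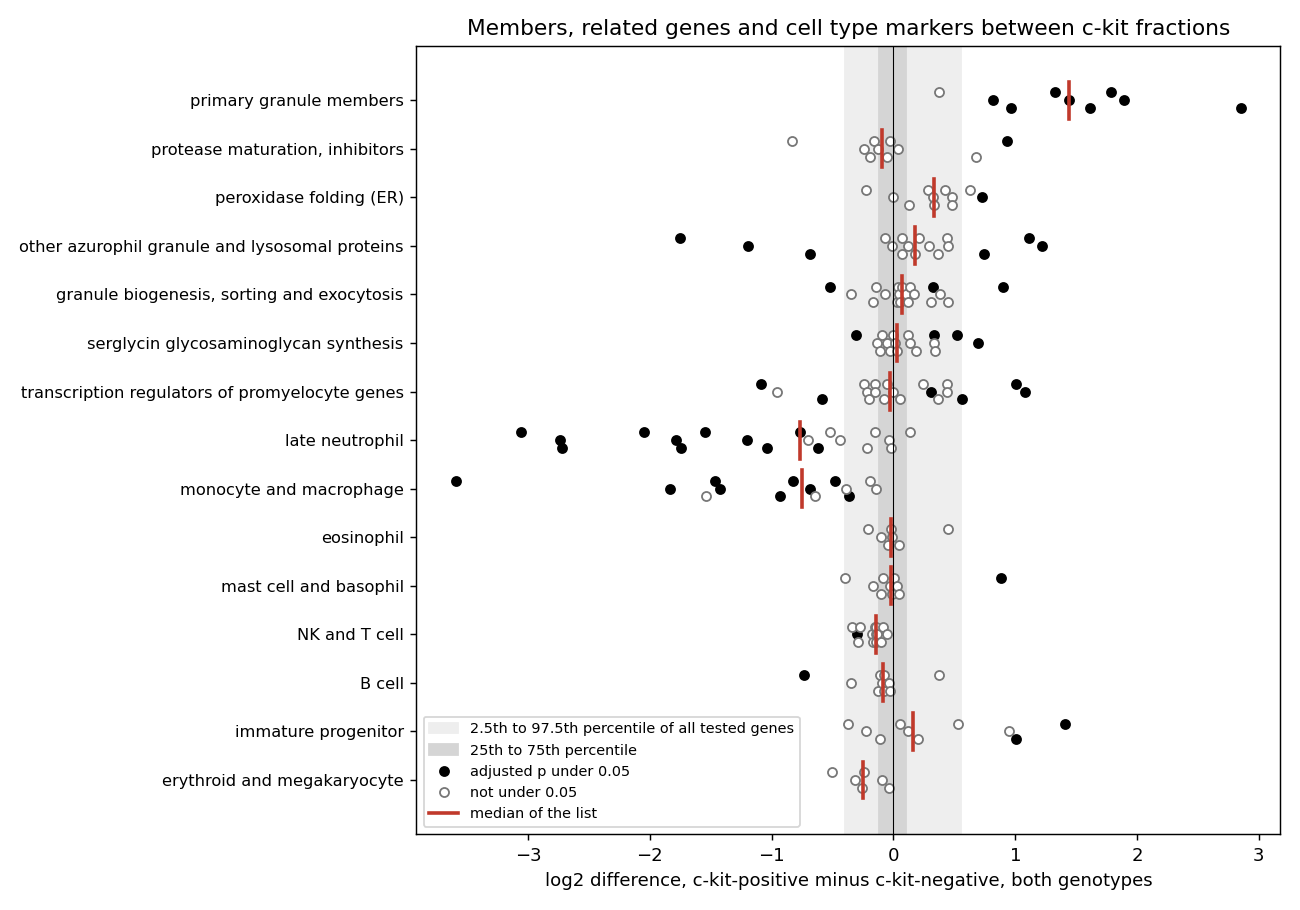
Log2 difference between c-kit-positive and c-kit-negative cells over both genotypes (x axis) for the 9 primary granule genes, 6 lists of related genes and 8 lists of cell type markers (rows); a point is a gene, filled where the adjusted p was under 0.05, red bars are list medians and grey bands hold percentiles of all genes tested. The primary granule median of 1.44 lies to the right of the bands, and the late neutrophil (-0.77) and monocyte (-0.75) medians lie to the left.

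Over the 12 arrays the 9 genes followed each other to different degrees. Pearson r of a gene with the mean of the other 8 was 0.987 for Mpo, 0.960 for Prtn3, 0.956 for Ms4a3, 0.953 for Elane and 0.899 for Nkg7. It was 0.815 for Ctsg, 0.805 for Fcnb, 0.755 for Prss57 and 0.737 for Srgn. The arrays came in pairs from 6 leukaemias and split by c-kit, so these values describe mostly that shared split. Mpo and Ms4a3 were each among the closest genes of the other (r = 0.959), as Mpo was for Elane (0.958).

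Outside the list, the genes most like the mean profile of the 9 were Fli1 (r = 0.961 over the 12 arrays), Gng12 (0.958), Anxa3 (0.950), Zw10 (0.944), Tbrg1 (0.920), Clec12a (0.916), Zfp687 (0.912) and Gpr160 (0.907). Their own log2 differences between the fractions were 0.38 to 0.86, all below the median of the primary granule genes. Fli1, an Ets factor gene, was also the closest gene to Mpo (0.968) and Ms4a3 (0.963). Ctsg, by contrast, was closest to Top3b (0.983) and Ankrd13a (0.970), Srgn to Gstm1 (0.953) and Snx12 (0.951), Prss57 to Cep128 (0.941) and Cntln (0.931), and Fcnb to Tuba8 (0.919) and Itih5 (0.916).

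Genes next to the primary granule genes on the chromosomes were compared as well. Of the 32 tested neighbours that were not on the list, 7 rose in c-kit-positive cells and 0 fell, beside the 5.84% and 2.41% of all genes, and their median log2 difference was -0.02. Beside Nkg7 the electron transfer flavoprotein gene Etfb rose by log2 1.17, and beside Mpo Tspoap1 rose by 0.60. Around Elane and Prtn3, Ptbp1 rose by 0.61 and Med16 by 0.42, and around Prss57, Rnf126 rose by 0.45 and Palm by 0.52.

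The protease cluster on chromosome 14 holds Ctsg beside Mcpt8, a serine protease gene best known from basophils. Mcpt8 rose by log2 0.88 in c-kit-positive cells (adjusted p = 0.0293). Its log2 level in c-kit-positive cells was 6.44, 5.70 and 6.43 in knock-in leukaemias, against 7.38, 7.94 and 6.61 in wild-type leukaemias. As for Ctsg, the knock-in arrays all stood lower, and the difference of -1.11 did not pass (adjusted p = 0.215 with limma). The labels did not overlap in these cells for 17.4% of all genes. This genotype value of Mcpt8 was looked up after that of Ctsg had been seen. The granzyme genes on the other side, Gzmb and Gzmn, had log2 differences of -0.29 and -0.17 between the c-kit fractions and did not pass. With the replicate block Gzmb fell (adjusted p = 0.0457). Between the genotype labels in c-kit-positive cells, Gzmb, Gzmn and a further neighbour, Gm5801, went the other way from Mcpt8. Their log2 differences were 0.13, 0.13 and 0.10 and did not pass.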

How the data were processed

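The deposited table held log2 values of 41345 probe sets on 12 arrays, made with RMA in Affymetrix Expression Console per the submitters' processing notes, which give no versions. RMA corrects background, normalizes arrays to a shared distribution and summarises probes, so levels are relative and are not compared between genes; the number of arrays, not depth, limits the precision. Gene symbols came from the platform annotation. A gene was tested if it exceeded log2 4.61, the 25th percentile, on at least 3 arrays. One limma model (3.58.1, R 4.3.3) with 4 group means covered the 12 arrays; genotype over both fractions used leukaemia means, 3 against 3. Tests were two-sided, adjusted by Benjamini-Hochberg over all 19152 genes, with a threshold of 0.05. The code was tested on simulated data.

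Both fractions carry a leukaemia number in the labels, and their deviations from group means correlated at 0.279 to 0.601, so the number paired them and was used as a replicate block in a second fit (fixed for c-kit contrasts and the interaction, random for genotype). Other alternatives were no filter or a stricter filter, median centring, repeated quantile normalization, the mean of a gene's probe sets, fits on only the arrays compared, and leaving out each leukaemia. Named genes were the 9 listed genes, Kit and Dnmt3b, in each list of related genes, late neutrophil and monocyte markers the 4 with the smallest p or all past the threshold, in other marker lists those past the threshold or never above the filter, the 2 tested neighbours on each side, and the genes most alike by Pearson r. Some other marker and regulator genes were added for their levels or differences. The genes and lists were chosen with earlier results of these data known. Neighbours came from RefSeq gene order, and promoter sequence from RefSeq, GRCm38.p6. Cross-hybridization between related protease genes was not tested.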

Additional observations from a re-analysis of the deposited data

How the results depend on the processing

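With the leukaemia as a replicate block, the count of primary granule genes that rose was 8 of 9 in knock-in and 9 of 9 in wild-type leukaemias, against 2 in each without it, and no genotype or interaction call changed. Calls in either direction among all genes also rose with the block, from 360 to 1666 in knock-in and from 147 to 2109 in wild-type leukaemias. In knock-in leukaemias the count of the 9 was 4 after repeated quantile normalization, beside 543 calls among all genes. In wild-type leukaemias it was 1 without a filter or with arrays centred on their medians, beside 119 and 69 calls among all genes. It was 5 with only the arrays compared, beside 898 calls, and the cause was not tested. Leaving out a leukaemia, in fits without the block, gave 4 to 8 genes over both genotypes, 0 to 5 in knock-in and 0 to 5 in wild-type leukaemias. The shares of all genes called in either direction were 2.63% to 10.9%, 0.303% to 1.92% and 0.00522% to 3.46%. Every c-kit difference kept its direction under every alternative run, Srgn included, but not every run could change it. The block, the filters, the mean of probe sets and fits on only the arrays compared leave these estimates as they are. Median centring, repeated quantile normalization and leaving out a leukaemia of the genotypes compared could move them.

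Some of the genotype differences, none of which passed, changed sign when a leukaemia was left out. Those of Ctsg, Prss57, Nkg7 and Fcnb kept their sign whichever leukaemia was left out, in each fraction and over both. In c-kit-positive cells they ranged over -0.875 to 0.394 for Mpo, -0.455 to 0.219 for Elane, -0.14 to 0.268 for Prtn3 and -0.578 to 0.351 for Ms4a3. In c-kit-negative cells they ranged over -0.157 to 0.876 for Elane, -0.15 to 0.636 for Prtn3, -0.431 to 0.0901 for Ms4a3 and -0.11 to 0.111 for Srgn. Over both fractions they ranged over -0.365 to 0.646 for Mpo, -0.306 to 0.548 for Elane, -0.145 to 0.452 for Prtn3 and -0.457 to 0.221 for Ms4a3. The interaction ranged over -0.368 to 0.107 for Prtn3, -0.206 to 0.448 for Ctsg and -0.242 to 0.555 for Ms4a3. Repeated quantile normalization turned the c-kit-positive differences of Mpo (0.0676) and Ms4a3 (0.0568) and the c-kit-negative difference of Srgn (0.00984). With 3 leukaemias per label, the signs of these differences are not settled.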
